A study of Mus musculus with 29 samples.

Results

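Genes of fatty acid desaturation and chain elongation were followed in brown adipose tissue (BAT) and gastrocnemius skeletal muscle (SkM) of mice under calorie restriction (CR), treadmill exercise training (EX) or both (CREX). The genes were taken by their symbols from a count table of 24770 gene symbols and number 10, each with a single row: the desaturases Fads1, Fads2, Fads3 and Scd2, the elongases Elovl1, Elovl4, Elovl5 and Elovl7, the dehydratase Hacd2 and the reductase Tecr. All mice were wild-type C57BL/6J males, 8 weeks of age at the start, and the interventions lasted 8 weeks. Control mice ate ad libitum and stayed sedentary. The food of CR mice was lowered stepwise to 70% of ad libitum intake. EX mice ate ad libitum and ran at 12 m per min on 5 days per week, and CREX mice received both interventions. Tissues of trained mice were taken a day after the last run, and mice of all groups were fasted before tissue collection. RNA-seq libraries of BAT came from 3 control, 4 CR, 4 EX and 4 CREX mice, and those of SkM from 4 control, 3 CR, 4 EX and 3 CREX mice. Libraries are numbered within each group as the labels number them, and p-values measure the spread between these libraries.

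Long-chain fatty acids are lengthened in the endoplasmic reticulum by a cycle in which an elongase of the Elovl family joins a malonyl unit to the acyl chain, a ketoacyl reductase and a dehydratase of the Hacd family act next, and Tecr performs the closing reduction. Desaturases insert double bonds with electrons passed on by cytochrome b5 and its reductase: Scd enzymes make monounsaturated fatty acids from saturated ones, and Fads2 and Fads1 act in turn on the route from dietary linoleic acid to arachidonic acid. In brown fat these enzymes shape the triglycerides of the lipid droplets and the membrane lipids, and many of their genes are known targets of the sterol regulatory element-binding proteins.

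BAT libraries held 21047242 to 24919377 counts and SkM libraries 23050918 to 23425284, so that 3 counts stand at 0.120 to 0.143 CPM, counts scaled to library size. Ucp1, the uncoupling protein of brown adipocytes, stood at 1373 to 4750 CPM in BAT and at 0 to 0.138 CPM in SkM, and the summed level of 13 muscle fibre genes, led by Acta1 or Myh4, was 111443 to 186537 CPM in SkM. That muscle sum also ran from 3.30 to 6527 CPM across BAT libraries. The liver gene Alb reached 32.3 to 51.4 CPM in 3 BAT libraries (CR3, CREX4 and EX2) and 27.9 to 153 CPM in the SkM libraries CR1, CR2, CR3 and CREX1, against at most 3.21 CPM in every other library. Values below are CPM scaled by edgeR's TMM factors, tests are edgeR's quasi-likelihood test with Benjamini-Hochberg adjustment over all genes tested, and a gene is called when its adjusted p is below 0.05 and its fold change exceeds 1.5. In whole tissue, fewer cells of a type and less RNA per cell cannot be told apart.

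The 3 Fads genes are neighbours on chromosome 19 (GRCm38, GENCODE vM21), where Fads3 occupies chr19:10041569-10060110 on the plus strand, Fads2 chr19:10062765-10101746 on the minus strand and Fads1 chr19:10182888-10196877 on the plus strand. Fads2 and Fads3 end 2654 bases apart, and 81141 bases separate Fads2 from Fads1. Scd2 lies on the same chromosome at chr19:44293674-44306864. Tecr lies at chr8:83571698-83607971, Hacd2 at chr16:35022428-35109177, Elovl1 at chr4:118428093-118432953, Elovl4 at chr9:83778692-83806277, Elovl5 at chr9:77917364-77984519 and Elovl7 at chr13:108214404-108285683. Of all 50-base words in the exons of Hacd2, 6.74% also occur in Gm7908. For Tecr 6.18% occur in 3 other loci, for Scd2 3.97% occur in Scd1, Scd3 and Scd4, and for each of the other members 0.152% or less occur elsewhere. Counts of Hacd2, Tecr and Scd2 may therefore hold some reads of these relatives, and an exon of Elovl1 overlaps Cdc20 on the opposite strand by 53 bases.

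In all, 4 short motifs known from promoters of lipid genes were looked for on both strands of the 250 bases before the RefSeq start sites (GRCm38.p6) of 8 members, which do not include Fads1 and Scd2, with letters chosen after the sequences had been seen: the core of a sterol regulatory element (CACCCCAC, in 2.58% of 32851 such windows of all genes), the NF-Y box (CCAAT, 33.9%), the GC box (GGGCGG, 32.7%) and the E-box (CACGTG, 6.02%). The windows of Fads3, Hacd2 and Tecr are shown because these 3 genes passed the adjusted p in BAT under CR, as did Fads1. Capitals mark the motifs, and each window reads 5′ to 3′ on the strand of its gene.
Fads3 chr19:10041298-10041547, plus strand: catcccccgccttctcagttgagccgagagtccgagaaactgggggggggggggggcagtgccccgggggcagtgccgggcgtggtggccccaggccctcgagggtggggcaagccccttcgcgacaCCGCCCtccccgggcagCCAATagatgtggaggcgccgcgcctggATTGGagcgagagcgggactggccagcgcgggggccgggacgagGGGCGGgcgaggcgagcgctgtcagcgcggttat
Hacd2 chr16:35022171-35022420, plus strand: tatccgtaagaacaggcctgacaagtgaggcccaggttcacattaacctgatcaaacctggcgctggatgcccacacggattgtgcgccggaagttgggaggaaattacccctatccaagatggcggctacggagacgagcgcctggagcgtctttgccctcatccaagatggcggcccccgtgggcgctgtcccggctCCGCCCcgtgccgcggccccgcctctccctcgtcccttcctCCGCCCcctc
Tecr chr8:83594492-83594741, minus strand: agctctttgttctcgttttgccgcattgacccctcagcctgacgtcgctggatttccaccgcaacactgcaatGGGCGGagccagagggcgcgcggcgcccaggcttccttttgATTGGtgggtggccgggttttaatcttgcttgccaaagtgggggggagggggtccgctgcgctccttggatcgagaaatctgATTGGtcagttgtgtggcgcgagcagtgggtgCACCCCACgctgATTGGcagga
The Tecr window holds a sterol element core 22 bases before the start and NF-Y boxes at 136, 54 and 10 bases before it, with a GC box at 177. It lies inside the longest annotated extent of Tecr but in none of its exons. Fads3 has NF-Y boxes at 106 and 78 bases and GC boxes at 123 and 34, while Hacd2 has GC boxes at 51 and 10 bases and no NF-Y box. Among the other windows searched, that of Elovl7 also held the sterol element core and that of Elovl5 held NF-Y boxes at 71 and 17 bases and an E-box at 161. A window of Elovl1 held an NF-Y box at 35 bases, and GC boxes also stood in windows of Elovl1, Elovl4, Elovl7 and Fads2. Of the Fads2 window, 243 bases lie in annotated exons of Fads2. A match describes the letters of a window and not a bound site.

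**Figure D1:**
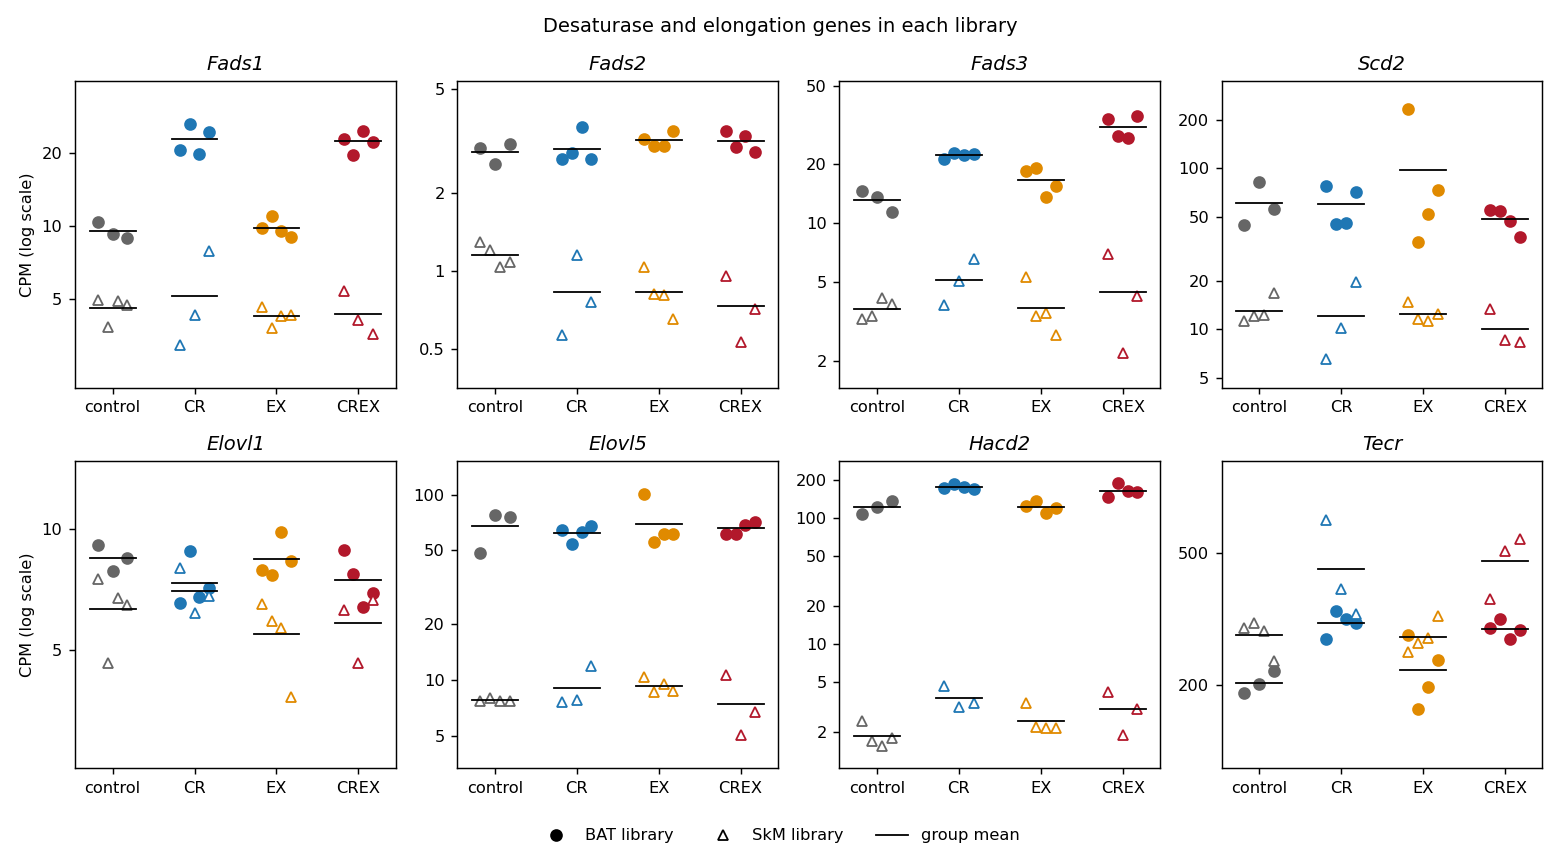
TMM-scaled CPM on a log axis for the 8 members expressed well enough to be tested in BAT, with filled circles for BAT libraries, open triangles for SkM libraries and a line at each group mean. In BAT, Fads1 stood at 8.99 to 11 CPM in control and EX libraries and at 19.7 to 26.4 CPM in CR and CREX libraries, while Fads2 stayed between 2.58 and 3.59 CPM in all 15.

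The first comparison asks what CR alone did in BAT. Fads1, Fads3 and Tecr were higher in CR than in control mice, 3 of the 8 members tested, against 10.7% of all 13323 genes called in either direction and 3.87% called higher. No member was called lower. The median log2 fold change of the 8 tested members was 0.29, against 0.0045 for all genes tested. Elovl4 and Elovl7 did not pass the filter on low counts.

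Fads1, which makes arachidonic acid from its immediate precursor, stood at 10.4, 9.26 and 8.99 CPM in the control libraries and at 20.6, 26.4, 19.9 and 24.4 CPM in the CR libraries. The groups did not overlap, which held for 33.4% of all genes tested in this comparison, and the lowest CR library was well above the highest control. The mean rose from 9.57 ± 0.774 (SD, n = 3) to 22.8 ± 3.08 CPM (SD, n = 4), a log2 fold change of 1.26 (standard error, SE, of 0.12, adjusted p = 0.000144 by edgeR) or 2.39-fold.

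Fads3, known as a desaturase of the sphingoid base of ceramides, stood at 14.5, 13.5 and 11.4 CPM in control and at 21.3, 22.7, 22.3 and 22.4 CPM in CR libraries. Again no CR library fell into the control range, and the 4 CR libraries lay close together. Its log2 fold change was 0.76 with an SE of 0.09 (edgeR adjusted p = 0.000514). Fads2, which opens the polyunsaturated route, showed no such difference: control libraries held 2.97, 2.58 and 3.09 CPM and CR libraries 2.69, 2.84, 3.59 and 2.71 CPM, with overlapping groups. Its log2 fold change of 0.04 (95% confidence interval -0.33 to 0.41, edgeR adjusted p = 0.89) was bounded below the 1.5-fold level in both directions.

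As a description without a test, the ratio of Fads1 to Fads2 counts was 2.91 to 3.59 in control and 2.62 to 3.65 in EX libraries of BAT, and 5.56 to 9.30 in CR and 6.54 to 7.75 in CREX libraries. Fed and restricted BAT libraries did not overlap in this ratio. In SkM the ratio ran from 3.19 to 4.74 in control, from 3.76 to 10.3 in CR, from 4.48 to 6.64 in EX and from 5.06 to 7.69 in CREX libraries. There the Fads2 counts were only 13 to 29 per library, so that the ratio carries a large counting error.

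**Figure D2:**
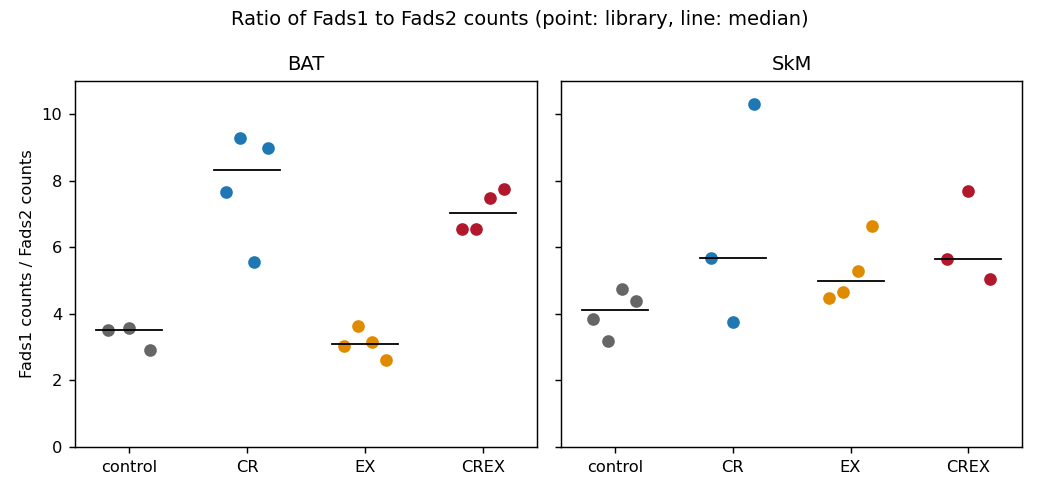
Ratio of Fads1 to Fads2 counts in each library (points) with the group median (line), BAT on the left and SkM on the right. The medians in BAT are 3.51 in control, 8.32 in CR, 3.10 in EX and 7.02 in CREX libraries, and in SkM the CREX libraries (5.06 to 7.69) lie above the control libraries (3.19 to 4.74) while the other pairs of groups overlap.

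Hacd2 and Tecr, the members that act after the elongase, passed the adjusted p in BAT of CR mice. The other genes of these steps did not: the ketoacyl reductase Hsd17b12 differed by 0.03 on the log2 scale (interval -0.17 to 0.23), and the other dehydratases Hacd1, Hacd3 and Hacd4 by -0.17, -0.04 and -0.21, values looked up after those of the members. Tecr, the enoyl reductase, stood at 189, 201 and 220 CPM in control and at 276, 333, 316 and 308 CPM in CR libraries, without overlap. The log2 fold change was 0.60 with an SE of 0.08 (edgeR adjusted p = 0.00113), which is 1.52-fold and barely past the fold minimum. Leaving out CR2, CR3 or control 1 put Tecr under that minimum (log2 fold change 0.55, 0.58 and 0.55) with an edgeR adjusted p of at most 0.00669. Hacd2, the dehydratase, stood at 107, 123 and 136 CPM in control and at 174, 187, 177 and 171 CPM in CR libraries, again without overlap. Its log2 fold change of 0.54 with an SE of 0.09 (edgeR adjusted p = 0.00211) passed the adjusted p but, at 1.46-fold, not the fold minimum. Without the fold minimum 4 members passed, against 20.9% of all genes.

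The member elongases that were tested, Elovl1 and Elovl5, and Scd2 showed no difference that passed. Elovl5, which lengthens polyunsaturated chains, stood at 48.5, 77.6 and 76.2 CPM in control and 54.4 to 67.5 CPM in CR libraries, all inside the control range (log2 fold change -0.12, 95% confidence interval -0.49 to 0.25, edgeR adjusted p = 0.64). For Elovl1, which serves saturated and monounsaturated chains, 7.89 to 9.13 CPM in control overlapped 6.55 to 8.85 CPM in CR libraries (log2 fold change -0.21, interval -0.50 to 0.07). Scd2, a stearoyl-CoA desaturase, ranged from 44.4 to 82.6 CPM in control and from 45.0 to 78.0 CPM in CR libraries, and its interval of -0.76 to 0.71 includes a 1.5-fold change in either direction. Elovl4, best known for very long polyunsaturated chains of the retina, had 5 counts in each control library and 4, 3, 1 and 4 in the CR libraries, all lower but too few to pass the filter, so that no test was made. Elovl7 had 6, 7 and 0 counts in control and 3, 2, 2 and 1 in CR libraries, which overlap and were not tested either.

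The second comparison repeats CR in trained mice, on different libraries. Fads1 and Fads3 were higher in CREX than in EX mice, 2 of 8 members tested, against 4.48% of 13251 genes called and 1.86% called higher, and no member was lower. Fads1 stood at 9.84, 11, 9.60 and 9.06 CPM in EX and at 22.8, 19.7, 24.7 and 22.3 CPM in CREX libraries. The groups were far apart, with a log2 fold change of 1.18 with an SE of 0.09 (edgeR adjusted p = 0.000328). Fads3 stood at 18.5, 19.0, 13.6 and 15.5 CPM in EX and at 33.7, 27.8, 27.0 and 35.2 CPM in CREX libraries, also without overlap (log2 fold change 0.89 with SE 0.13, adjusted p = 0.00396 by edgeR).

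Without the fold minimum 3 members passed, against 8.01% of all genes. Hacd2 held 125, 136, 110 and 120 CPM in EX and 146, 189, 165 and 162 CPM in CREX libraries, which did not overlap, and a log2 fold change of 0.43 (adjusted p = 0.0221 by edgeR) under the fold minimum. Tecr stood at 282, 169, 198 and 238 CPM in EX and at 298, 316, 275 and 293 CPM in CREX libraries. EX1 lay inside the CREX range, and the log2 fold change of 0.41 (interval 0.10 to 0.71, edgeR adjusted p = 0.098) did not pass. Fads2 again showed overlapping groups, at 3.02 to 3.46 CPM in EX and 2.88 to 3.47 CPM in CREX libraries (log2 fold change -0.01, interval -0.31 to 0.28).

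The EX1 library stood apart for other members too. Scd2 was 232 CPM there and 34.6, 52.1 and 73.2 CPM in the other EX libraries, and Elovl5 was 101 CPM against 55.5, 61.3 and 61.1 CPM. The same library held 40859 CPM of Scd1, the major stearoyl-CoA desaturase of adipose tissue, against 20074 to 26939 CPM in the other EX libraries. Scd2 did not pass the test between CREX and EX (log2 fold change -1.02, interval -2.50 to 0.46, edgeR adjusted p = 0.35), and no more did Elovl5 (log2 fold change -0.09, interval -0.50 to 0.32). Elovl4 had 5, 5, 6 and 8 counts in EX and 4, 1, 2 and 1 in CREX libraries, which do not overlap but fall below the filter and were not tested. Of all 10 members, Fads1, Fads3 and Hacd2 were above and Elovl4 below the EX range in all 4 CREX libraries, whereas 17.7% of all genes tested had groups that did not overlap.

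In 1 fit over all 4 BAT groups, the CR effect averaged over sedentary and trained mice was 1.21 for Fads1 with an SE of 0.08 (edgeR adjusted p = 1.38e-07) and 0.82 for Fads3 with an SE of 0.08 (edgeR adjusted p = 6.23e-06) on the log2 scale, 2 of 8 members, against 11.8% of 13922 genes called and 3.96% called higher. Hacd2 (0.48, edgeR adjusted p = 6.72e-05) and Tecr (0.50, edgeR adjusted p = 0.000553) passed the adjusted p with fold changes of 1.40 and 1.42, so that 4 members passed without the fold minimum, against 33.4% of all genes. Fads1 and Fads3 remained called when each BAT library was left out in turn. They were also called when the 3 BAT libraries with most Alb were left out, a choice made after the data had been seen (1.27 and 0.82), and with a muscle fibre score as a covariate (1.19 and 0.81). Ucp1 stood at 1373 to 2583 CPM in CR and CREX and at 2954 to 4750 CPM in control and EX libraries, and the sum of 8 brown adipocyte genes at 3454 to 5211 and 5706 to 7692 CPM. The sum of 8 general adipocyte genes, led by Fabp4, was not lower: 12555 to 13413 CPM in CR and 11233 to 12637 CPM in control libraries. It was 11635 to 13103 CPM in CREX and 10741 to 12684 CPM in EX libraries. Of these 8 genes, 4 had a positive log2 fold change between CR and control, where Plin1 alone was called, as lower. In trained mice Retn alone was called, as higher. Over all 4 groups Retn was called higher and Lep lower. Sums of 5 endothelial markers were 219 to 274 CPM in CR and 299 to 333 CPM in control libraries, and sums of 4 fibroblast markers were 112 to 150 and 168 to 193 CPM, with all of these genes detected. Sums of 6 macrophage markers were 22.5 to 35.1 CPM in CR and 35.6 to 40.1 CPM in control libraries. In trained mice they overlapped, at 23.8 to 43.3 CPM in CREX and 40.4 to 59.4 CPM in EX libraries. For the CR effect over all 4 groups 6 of 6 passed the adjusted p, with a median of -0.53 on the log2 scale. In that fit Cd163 was higher (0.55) and the others lower, and Adgre1 alone was called (-0.88). Between CR and control Mrc1 alone was called, as lower, and between CREX and EX no macrophage gene was called. Sums of 4 B cell markers were 0.174 to 0.247 CPM in CR and 1.11 to 1.97 CPM in control libraries. Both genes tested over all 4 groups, Cd79a and Cd79b, were called lower (-3.46 and -2.0), while Ms4a1 was at 0 in every CR library. The single adipocyte, macrophage and B cell genes that were called were picked out after their values had been seen. Keratinocyte markers, 2 in the table, summed to at most 1.98 CPM in any library. The part of all these cell types in the CR differences was not tested.

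**Figure D3:**
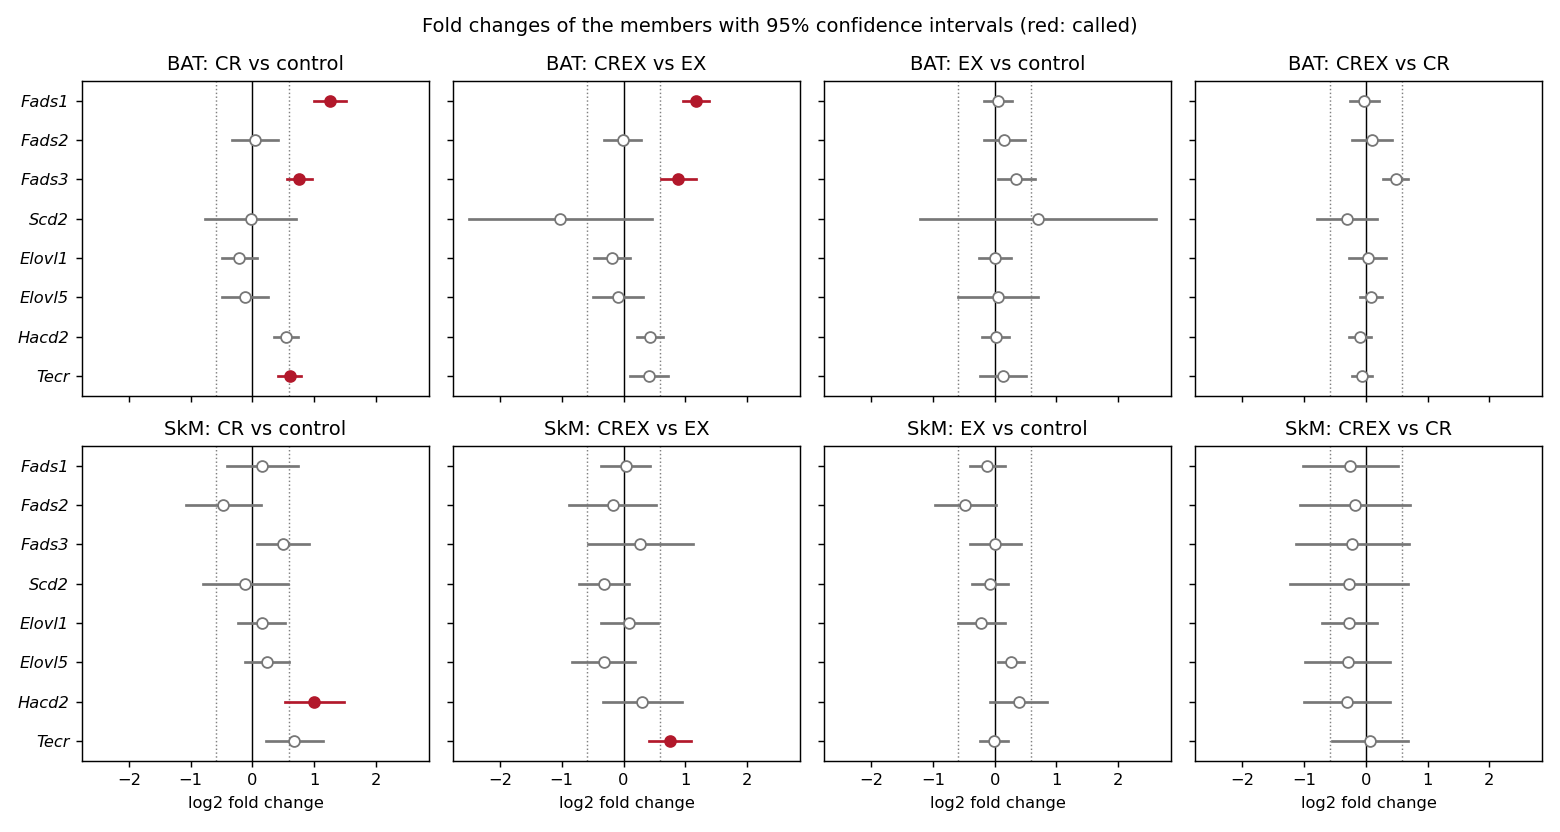
Log2 fold changes of 8 members (points) with 95% confidence intervals (bars) in the 4 comparisons of BAT (top) and SkM (bottom), with red for called members and dotted lines at 1.5-fold. Fads1 stands at 1.26 and 1.18 in the BAT comparisons of restricted with fed mice, while Hacd2 and Tecr are the members called in SkM.

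A day after the last run, no effect of training alone on the members of BAT was detected. Between EX and control mice no gene was called by edgeR among 13407 tested (0%), with 972 at an unadjusted p under 0.05 and 36 called by DESeq2, and no member was among these 36. This comparison shares its control libraries with that of CR and control. Fads1 differed by 0.06 on the log2 scale (interval -0.17 to 0.29), which keeps any change under 1.5-fold. Fads3 was the tested member closest to a difference, at 14.5, 13.5 and 11.4 CPM in control and 13.6 to 19.0 CPM in EX libraries (log2 fold change 0.35, unadjusted p = 0.0243 and adjusted p = 0.63 by edgeR). Elovl4, not tested, had 5 counts in each control library and 5 to 8 in the EX libraries. In CPM its groups did not overlap, as for 8.1% of all genes tested. Between CREX and CR mice 0.00763% of 13112 genes were called, with 1001 at an unadjusted p under 0.05 and 30 called by DESeq2, no member among those called. Fads3 was nevertheless higher in every CREX library (27.0 to 35.2 CPM) than in every CR library (21.3 to 22.7 CPM). Its log2 fold change of 0.48 (SE 0.09) had an unadjusted p of 0.000356 and an adjusted p of 0.25 by edgeR. Groups without overlap were seen for 5.15% of all genes in this comparison.

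Over all 4 BAT groups the training effect on Fads3 was 0.42 on the log2 scale (interval 0.24 to 0.59, edgeR adjusted p = 0.14), where 0.00718% of all genes were called. The interaction of CR and EX was called for 0% of 13922 genes by edgeR, with 800 at an unadjusted p under 0.05, none of which was a member, and 4 called by DESeq2. For Fads1 the interaction was -0.08 (interval -0.40 to 0.25) and for Fads3 0.13 (interval -0.22 to 0.49). The CR effects on both genes in sedentary and trained mice thus differed by less than their error.

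The other genes of the pathway were taken as 3 hand-written lists. In BAT of CR against control mice, 10.7% of all genes tested were called and 3.87% were called higher. Of 8 genes that supply the saturated precursor, 6 were higher in BAT of CR mice, with a median log2 fold change of 0.76 over the list: Me1, the malic enzyme that provides NADPH, by 1.49 with an SE of 0.14 (edgeR adjusted p = 0.000275), Fasn, the fatty acid synthase, by 0.75 (0.09, edgeR adjusted p = 0.000419), Thrsp, a lipogenic nuclear protein, by 0.76 (0.10, edgeR adjusted p = 0.000676), and also Acaca, Acly and Slc25a1. Of 21 partner enzymes, 17 were tested and 3 were higher. Cyb5a, the cytochrome b5 that feeds electrons to desaturases, rose from 94.5 ± 9.46 (SD, n = 3) to 165 ± 12.9 CPM (SD, n = 4), a log2 fold change of 0.81 (adjusted p = 0.000342 by edgeR). Its reductase Cyb5r3 rose by 0.73 (edgeR adjusted p = 0.000682) and Elovl6, which makes stearic from palmitic acid, by 0.97 (edgeR adjusted p = 0.00259). The median of the 17 was 0.04.

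Scd1 averaged 24257 ± 3480 CPM in control (SD, n = 3) and 30325 ± 1707 CPM in CR libraries (SD, n = 4). Its log2 fold change of 0.32 (edgeR adjusted p = 0.0363) stayed under the fold minimum. Of 12 regulators, Insig1, which holds sterol regulatory element-binding proteins in the endoplasmic reticulum, was higher by 0.81 (edgeR adjusted p = 0.00924), and Srebf1, which encodes such a protein, differed by -0.11 (edgeR adjusted p = 0.80). Cyb5r3, Insig1, Acaca and Slc25a1, and below Elovl3 and Ppara, were named after their values had been seen. Between CREX and EX mice only Cyb5a (0.65, edgeR adjusted p = 0.0222) and Cyb5r3 (0.61, edgeR adjusted p = 0.00484) of the 3 lists were called, both higher, against 4.48% of all genes called. Elovl6 (0.86, edgeR adjusted p = 0.068), Fasn (0.56, edgeR adjusted p = 0.18), Scd1 (0.17) and Srebf1 (0.07) did not pass there. For the CR effect over all 4 BAT groups, 4 of 17 partner enzymes were called, all higher, with Elovl3 among them. Of the 12 regulators, Insig1 was called higher and Ppara lower. In that fit 11.8% of all genes were called.

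**Figure D4:**
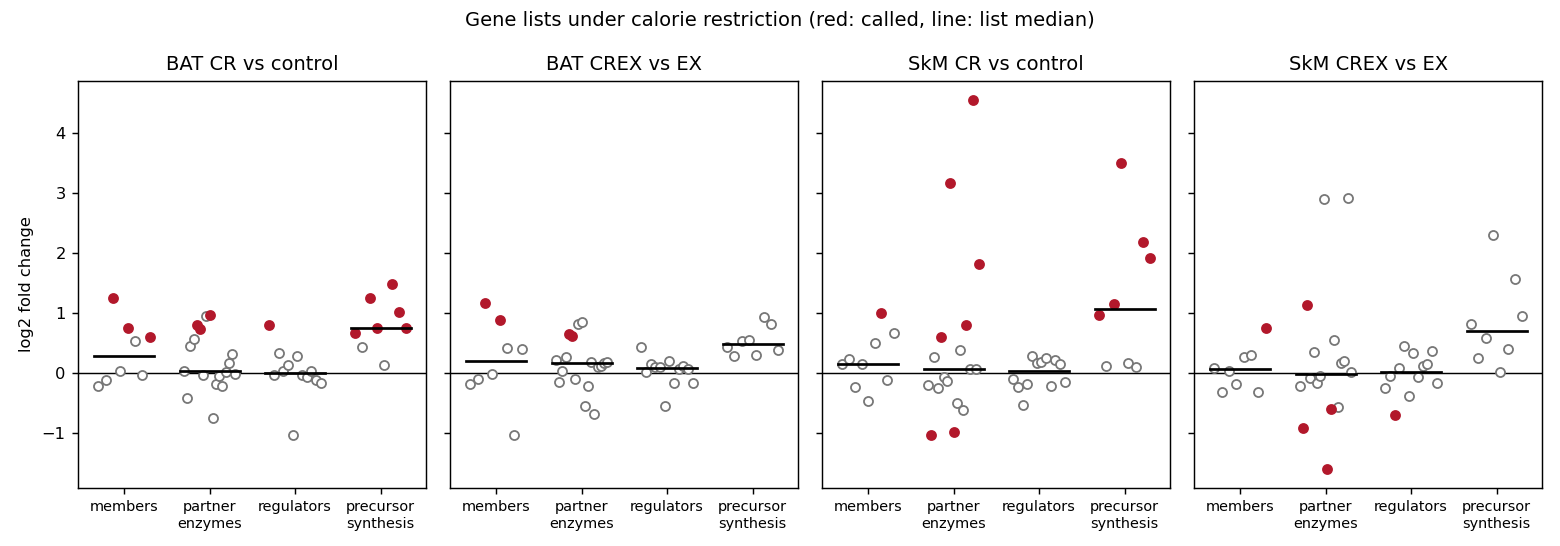
Log2 fold changes of the tested members, partner enzymes, regulators and precursor synthesis genes (points, red where called) with each list's median (line) in the 4 comparisons of restricted with fed mice. In BAT the precursor list has medians of 0.76 (CR against control) and 0.49 (CREX against EX), and in SkM of 1.07 and 0.70, where single genes reach 4.56.

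In SkM the members called were Hacd2 and Tecr. Hacd2 was higher in CR than in control mice, 1 of 9 members tested, against 9.60% of 13173 genes called and 4.27% called higher, and no member was lower. The median log2 fold change of the 9 was 0.16, against 0.0050 for all genes. Hacd2 stood at 2.44, 1.68, 1.54 and 1.79 CPM in control and at 4.61, 3.16 and 3.40 CPM in CR libraries (34 to 105 counts in all SkM libraries). The groups did not overlap, as for 27.5% of all genes tested, with a log2 fold change of 1.0 with an SE of 0.22 (edgeR adjusted p = 0.0133). Between CREX and EX mice Hacd2 stood at 4.16, 1.89 and 3.01 CPM and at 3.35, 2.17, 2.12 and 2.14 CPM, which overlap (log2 fold change 0.30, interval -0.34 to 0.94).

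Markers of several other cell types also differed in these libraries. Of 8 adipocyte genes 6 were tested between CR and control, with a median log2 fold change of 3.00, but Lpl alone was called, and it was lower. The sum of the 8, led by Lpl, was 566 to 798 CPM in CR and 822 to 983 CPM in control libraries. Of 5 endothelial genes Cdh5, Kdr and Emcn were called lower (sum 132 to 176 against 213 to 276 CPM), as was Col1a1 of 4 fibroblast genes, and all 3 hepatocyte genes tested were called higher (sum 35.7 to 203 against 0.276 to 4.56 CPM). The part of the endothelial, fibroblast and hepatocyte genes in the Hacd2 and Tecr differences was not tested, and the single genes were again picked out afterwards. Adipoq, made by adipocytes and named here after its values had been seen, stood at 9.92 CPM in CR1, 13.4 in CR3, 14.8 in CREX1 and 12.8 in EX1, and at most at 3.41 CPM in the other SkM libraries. The 3 highest Hacd2 values were those of CR1 (4.61), CREX1 (4.16) and CR3 (3.40), and EX1 at 3.35 CPM was the highest of its group. CR2, with 0.869 CPM of Adipoq, held 3.16 CPM of Hacd2 and was above all 4 control libraries. With the score of all 8 adipocyte genes as a covariate the Hacd2 difference was 0.77 (edgeR adjusted p = 0.14), and it was 0.77 (edgeR adjusted p = 0.16) without the 4 libraries with most Adipoq, which leaves 1 CR library, assumed to vary like the others. With 5 of those genes it was 0.72 (edgeR adjusted p = 0.21). The last pair of choices was made after the data had been seen. The Hacd2 call is therefore lost in each of these fits, while its direction is kept.

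**Figure D5:**
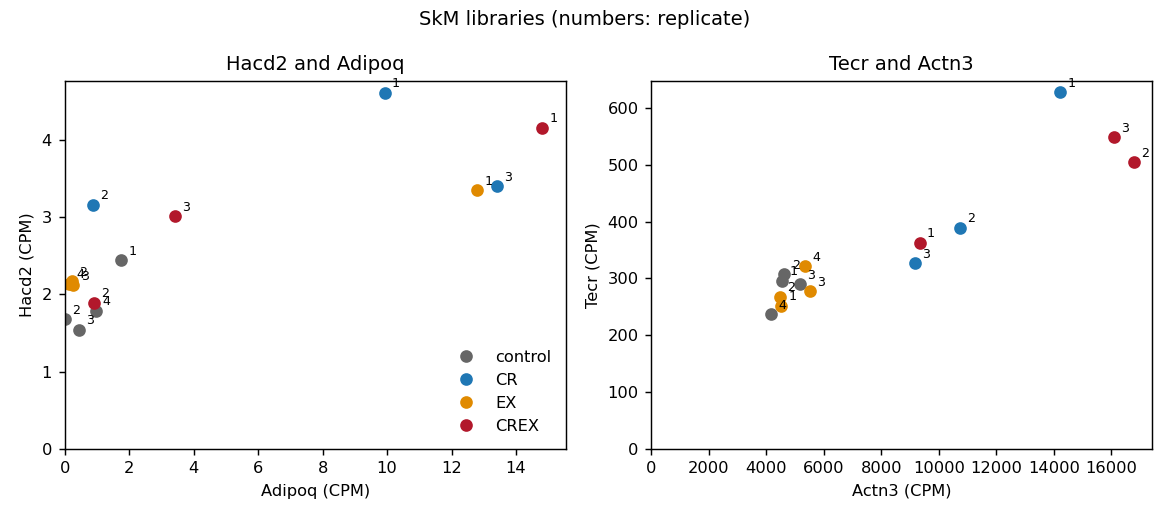
Hacd2 against Adipoq (left) and Tecr against Actn3 (right) in CPM, with 1 point per SkM library coloured by group and numbered by replicate. Hacd2 is highest in CR1 and CREX1, where Adipoq is 9.92 and 14.8 CPM, and Tecr is highest in CR1, CREX3 and CREX2, where Actn3 is 14223 to 16792 CPM.

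Tecr was higher in CREX than in EX mice, 1 of 8 members tested, against 8.87% of 13112 genes called and 3.70% called higher. It stood at 252, 268, 277 and 322 CPM in EX and at 363, 505 and 549 CPM in CREX libraries, with no overlap, as for 28.3% of all genes tested (log2 fold change 0.76 with SE 0.15, adjusted p = 0.0168 by edgeR). Leaving out CREX2, EX1, EX2 or EX3 raised the edgeR adjusted p to between 0.054 and 0.065. In sedentary mice Tecr stood at 296, 307, 290 and 237 CPM in control and 628, 389 and 327 CPM in CR libraries, again without overlap. There its log2 fold change of 0.67 (SE 0.21) had an edgeR adjusted p of 0.056, was called by DESeq2 and was 0.34 without CR1.

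Over all 4 SkM groups, the CR effect was 0.72 for Tecr with an SE of 0.14 (edgeR adjusted p = 0.00170) and 0.65 for Hacd2 with an SE of 0.18 (edgeR adjusted p = 0.0132), 2 of 9 members, against 14.1% of 13610 genes called and 5.99% called higher. Without CR1 both fell under the fold minimum, at 0.55 and 0.56, and without CREX1 Hacd2 did, at 0.51. Tecr kept its call with either adipocyte score and without the 4 libraries with most Adipoq (0.66 to 0.79), while Hacd2 lost it (0.34 to 0.48). The fast fibre gene Actn3 was also named after its values had been seen. It stood at 9158 to 16792 CPM in CR and CREX libraries and at 4171 to 5516 CPM in control and EX libraries. The 13-gene fibre sum stood at 133467 to 186537 against 111443 to 140780 CPM. Of these 13 genes, 8 had a positive CR effect over all 4 SkM groups and the others a negative one. Mylpf and Actn3 alone were called, both higher. The 3 libraries with most Tecr were also those with most Actn3, and the part of this in the Tecr difference was not tested.

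Fads1 did not pass the test in SkM. Control libraries held 4.97, 3.86, 4.93 and 4.74 CPM and CR libraries 3.25, 4.31 and 7.90 CPM, so that the CR libraries lay on both sides of the control range (log2 fold change 0.16, interval -0.41 to 0.74, edgeR adjusted p = 0.72). Between CREX (5.41, 4.11 and 3.61 CPM) and EX (3.8 to 4.66 CPM) the difference was 0.03 (interval -0.36 to 0.42). Fads2 stood at 1.04 to 1.29 CPM in control and at 0.570, 1.15 and 0.764 CPM in CR libraries (log2 fold change -0.47, interval -1.08 to 0.14). Fads3 stood at 3.27 to 4.16 CPM in control and 3.82, 5.10 and 6.57 CPM in CR libraries (log2 fold change 0.50, interval 0.08 to 0.92, edgeR adjusted p = 0.11), and was called when CR1 was left out (0.66, edgeR adjusted p = 0.022).

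The CR3 muscle library was highest or near highest for several members. It held 7.90 CPM of Fads1, 19.6 of Scd2 and 11.9 of Elovl5, the highest values of all 14 SkM libraries for these genes. Control 4 held the second highest Scd2, 16.7 CPM. Scd2 passed no test between CR and control (log2 fold change -0.11, interval -0.80 to 0.58) or between CREX and EX (-0.32, interval -0.72 to 0.09). Elovl5 stood at 7.64 to 8.0 CPM in the 4 control libraries, at 8.55 to 10.4 CPM in EX libraries and at 5.01, 6.74 and 10.6 CPM in CREX libraries. Elovl7 had 0 to 14 counts per SkM library and Elovl4 at most 3, with overlapping groups in every SkM comparison.

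No member was called for training in SkM. Between EX and control mice 0.0775% of 12907 genes were called (884 at an unadjusted p under 0.05, and 49 called by DESeq2), and between CREX and CR mice 0% of 13068, where edgeR found 477 genes at an unadjusted p under 0.05 and DESeq2 called 36. No member was among the genes called by either tool, and for the training effect over all 4 groups 0.0294% of genes and no member were called. Elovl5 was higher in all 4 EX than in all 4 control libraries, with a log2 fold change of 0.26 (SE 0.10, unadjusted p = 0.0206 and adjusted p = 0.58 by edgeR), where 4.22% of all genes had groups without overlap. The interaction was called for 0% of 13610 genes by edgeR, with 669 at an unadjusted p under 0.05, no member among them, and 1 called by DESeq2.

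Among the pathway lists in SkM of CR against control mice, 5 of 8 precursor synthesis genes were higher, among them Fasn by 3.50 with an SE of 0.55 (edgeR adjusted p = 0.00651), Acly, the ATP citrate lyase, by 1.16 (0.21, edgeR adjusted p = 0.00540) and Thrsp by 1.92 (0.31, edgeR adjusted p = 0.00425). Of 17 partner enzymes tested 5 were higher, with Scd1 at 4.56 (0.76, edgeR adjusted p = 0.00874) and Elovl6 at 3.17 (0.64, edgeR adjusted p = 0.0124), followed by Hsd17b12, Cyb5a and Tecrl. Lower were 2, Acsl1, a long-chain acyl-CoA synthetase (-1.03, edgeR adjusted p = 0.00106), and Fads6, a desaturase-like gene (-0.97, edgeR adjusted p = 0.0240). Scd1 was 188, 35.5 and 371 CPM in the CR libraries and 3.77 to 12.1 CPM in the control libraries, and in EX1 and CREX1, which also had high Adipoq, it was 65.4 and 369 CPM. The part of fat cell transcripts in these differences was not tested gene by gene. Alb stood at 27.9 to 153 CPM in the CR libraries and at most at 3.21 CPM in the control libraries. The part of liver transcripts was not tested either. No regulator was called, with Srebf1 at 0.16 (edgeR adjusted p = 0.51). Of all genes tested in this comparison, 9.60% were called and 4.27% were called higher.

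Between CREX and EX mice 4 of 16 partner enzymes were called, against 8.87% of all genes. Fads6 (-1.60, edgeR adjusted p = 0.00592), Acsl1 (-0.91, edgeR adjusted p = 0.0482) and Hacd1, the muscle dehydratase (-0.60, edgeR adjusted p = 0.0492), were lower, and Acsl3 (1.15, edgeR adjusted p = 0.0310) was higher. The glucose-responsive regulator Mlxipl was lower (-0.70, edgeR adjusted p = 0.0364). Scd1 (2.92, edgeR adjusted p = 0.21), Elovl6 (2.91, edgeR adjusted p = 0.088), Fasn (2.31, edgeR adjusted p = 0.18) and Srebf1 (0.37, edgeR adjusted p = 0.21) did not pass.

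The response of Fads1 to CR differed between the tissues. The labels do not tie BAT and SkM libraries to single mice, and fits over both tissues took all libraries as independent. In a fit over both tissues, the CR effect on the log2 scale was larger in BAT than in SkM by 1.15 in trained mice with an SE of 0.18 (edgeR adjusted p = 0.00545), where 5.58% of 14410 genes differed (3.03% in this direction), and this was called under all 20 other settings. In sedentary mice the difference was 1.09 with an SE of 0.30 (edgeR adjusted p = 0.0386), where 7.58% of 14369 genes differed (3.93% in this direction). That call was lost when any of 9 of 14 single libraries was left out, with an edgeR adjusted p of at most 0.090 (BAT control 3), and the difference was 1.57 without the SkM library CR3. No other member passed: for Fads3 the difference was 0.26 (interval -0.18 to 0.71) in sedentary and 0.63 (interval -0.23 to 1.49) in trained mice, and for Tecr -0.07 (interval -0.59 to 0.46) and -0.34 (interval -0.82 to 0.14). For Hacd2 it was -0.45 (unadjusted p = 0.0464 and adjusted p = 0.21 by edgeR) and 0.13 (interval -0.46 to 0.73).

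In control mice 7 of 8 members tested differed between BAT and SkM, against 60% of 13797 genes called (29.8% higher and 30.2% lower in BAT). Hacd2 was 54.0-fold higher in BAT (log2 fold change 5.76 with SE 0.15, adjusted p = 3.07e-11 by edgeR), Elovl5 7.19-fold (2.85, edgeR adjusted p = 1.54e-08), Scd2 3.85-fold, Fads3 2.96-fold, Fads2 2.06-fold and Fads1 1.71-fold. Tecr was lower in BAT (log2 fold change -0.75, edgeR adjusted p = 8.92e-05), and Elovl1 differed by 0.14 (interval -0.19 to 0.48). These calls were the same 7 genes under every other setting tried.

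Per kilobase of coding transcript exons, Tecr had the highest level in both tissues, with medians over libraries of 207 CPM per kb in BAT and 237 in SkM, and no other member reached its range. In BAT Hacd2 (40.6 CPM per kb), Elovl5 (22.5), Scd2 (9.97), Fads3 (5.78), Fads1 (5.70) and Elovl1 (4.06) followed, each overlapping its neighbour in this order over the 15 libraries. Fads2 (0.958) came below them without overlap, and Elovl4 (0.0579) and Elovl7 (0.0236) were lowest. In SkM Elovl1 (3.29 CPM per kb), Elovl5 (2.83), Scd2 (2.17), Fads1 (1.25), Fads3 (1.04) and Hacd2 (0.640) overlapped in the same way, followed by Fads2 (0.281), Elovl7 (0.0478) and Elovl4 (0.0207). Among BAT libraries the highest Scd2 value was 6.72-fold above the lowest, which rests on EX1 (232 CPM), since the other libraries spanned 34.6 to 82.6 CPM. Fads3 spanned 3.08-fold, Fads1 2.94-fold and Fads2 1.39-fold.

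The genes with a pattern most like each member were found by the root mean square difference of log2 CPM, centred on its mean, over all libraries of a tissue. In BAT (15 libraries, 13921 other genes) the nearest to Fads1 were Tcn2 (0.16), LOC108169076 (0.19) and Sh3d21 (0.19), set against a spread of Fads1 itself of 0.61. Nearest to Fads3 were Qsox1 (0.20), Catsper2 (0.22) and Mgst3 (0.22). Nearest to Tecr were Ldha (0.07), Mpc1 (0.07) and Gapdh (0.09), against a spread of 0.30, and nearest to Hacd2 were Reep6, Aldh9a1 and Wbp2 (0.12 each). In SkM (14 libraries) Tecr was nearest to Eif2b2 (0.10), Rpl4 (0.11) and Ociad1 (0.11), Fads1 to Ndrg1, Cnp and Nr2f2 (0.17 to 0.18), and Elovl7 to Mbp (0.35), Sostdc1 (0.38) and Gas2l3 (0.40). No member was among the 3 nearest genes of another member in either tissue.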

How the data were processed

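The 10 genes and the pathway and marker lists were chosen with earlier results of these data known. The authors trimmed the reads with trim-galore, mapped them with STAR 2.7.10a to mm10 and quantified them with RSEM, and they deposited expected counts per gene symbol without normalization. The annotation is not given in the sources used here. Expected counts, of which 6.11% had decimals, were rounded to whole counts. Computation used R 4.3.3 with edgeR 4.0.16 and DESeq2 1.42.0, and Python 3.11.15. Pairwise comparisons used only the libraries compared, filtered by filterByExpr, scaled by TMM and tested with edgeR (quasi-likelihood, robust, Benjamini-Hochberg). Main effects and interactions were fitted over a tissue's 4 groups, and tissue differences over both tissues. Standard errors were derived from the log2 fold change and its F statistic. Interactions and tissue differences needed an adjusted p under 0.05 only. Named pathway genes were up to 4 higher and 4 lower called genes with the smallest p per comparison, plus Scd1, Fasn, Elovl6 and Srebf1, of each marker list the most abundant gene, and the 3 nearest patterns per member and tissue. A marker list is not reported here. Tests were tried on simulated data. Intervals of 95% and the 3-count floor cover this sampling only. Alternatives were RLE factors, no filter, at least 10 counts per library, DESeq2, 1 fit on all groups, no fold minimum, a replicate block, marker scores as covariates and each library left out.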

Additional observations from a re-analysis of the deposited data

Results flagged for a closer look

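In groups of 4 libraries a value was set aside for a closer look when its gap to the nearest library, divided by the range of the group, exceeded Dixon's 95% critical value of 0.829, which chance exceeds in about 1 of 20 groups. This held for 4 of 46 member and group combinations. Elovl5 in BAT EX1 reached 0.872 (101 CPM, nearest 61.3 CPM). Hacd2 in SkM EX1, a library with 12.8 CPM of Adipoq, reached 0.962 (3.35 CPM, nearest 2.17 CPM). Fads2 in BAT CR3 reached 0.835 (3.59 CPM, nearest 2.84 CPM), and Elovl4 in BAT EX4 reached 0.883, with 8 counts against 6 in the nearest library. The CR effect on Fads1 differed between BAT and SkM by 1.09 on the log2 scale in sedentary mice (edgeR adjusted p = 0.0386) and by 1.15 in trained mice (edgeR adjusted p = 0.00545). The causes of these values were not tested.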

How the results depend on the processing

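Over 17 counts of called members, 129 alternative settings other than left-out libraries were run, and 117 gave a count within 1.5 times the reported one. No single value of a called member changed sign, and 8 counts were 0 in every setting. For the BAT effect of CR over all 4 groups, 4 members in place of 2 passed without the fold minimum. For SkM CR against control, 2 members in place of 1 were called with no filter, with DESeq2 and in 1 fit on all 4 groups, each time with Tecr added, and 0 with either adipocyte score or without the 4 libraries with most Adipoq. The same 3 settings left 1 of 2 for the SkM effect of CR over all groups, and leaving out those 4 libraries gave 2 in place of 1 for SkM CREX against EX, with Elovl5 added. The cause of these moves was not tested. The score of 5 adipocyte genes and leaving out libraries by Alb or Adipoq were added after the data had been seen.

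With each library left out in turn, the count ran from 2 to 4 for BAT CR against control (4 without control 3), from 1 to 2 for SkM CR against control (2 without CR1 or CR3), from 0 to 2 for SkM CREX against EX (0 without CREX2, EX1, EX2 or EX3, 2 without CREX1), from 0 to 2 for the SkM effect of CR (0 without CR1, 1 without CREX1) and from 0 to 1 for the tissue difference in sedentary mice, and it stayed at the reported count elsewhere. Fads1 and Fads3 were called in every setting of both BAT comparisons, at 1.17 to 1.32 and 1.13 to 1.24 for Fads1 and 0.67 to 0.83 and 0.80 to 0.96 for Fads3 on the log2 scale.

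Nothing in the labels pairs mice of different groups by replicate number, and same-numbered libraries did not deviate together throughout: over 8 comparisons the mean correlation of deviations lay between -0.302 and 0.151, and single pairs lay between -0.470 and 0.497. Blocking on the replicate number left the tissue difference in sedentary mice with 0 members in place of 1 (Fads1 1.07, edgeR adjusted p = 0.098), and no other count of members changed.

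Counts over all genes moved by more than 1.5 times from 1430 to 2778 (no fold minimum) and 929 (block) for BAT CR against control, from 594 to 1061 (no fold minimum) and 190 (3 libraries with most Alb left out) for BAT CREX against EX, and from 1642 to 4648 (no fold minimum) for the BAT effect of CR. In SkM they moved from 1264 to 631 and 516 (adipocyte scores of 8 and 5 genes) for CR against control, from 1163 to 1781 (no fold minimum), 646 (block) and 2321 (4 libraries left out) for CREX against EX, and from 1922 to 4556 (no fold minimum) for the effect of CR. The tissue difference moved from 1089 to 657 (block) in sedentary and from 804 to 1360 (DESeq2) in trained mice. For training and interactions the counts lay between 0 and 79 in these settings, and with single libraries left out those of SkM CREX against EX ran from 343 to 2570. At 0 to 14 counts per library, depth limits what can be said of Elovl4 and Elovl7.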
